A study of Mus musculus with 4 samples.

Results

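The 10 genes described here belong to the MHC class I pathway (H2-K1, H2-D1, B2m, Tap1, Tap2 and Nlrc5, 6 genes) or to the MHC class II pathway (H2-Ab1, H2-Aa, Cd74 and the regulator Ciita, 4 genes), out of 55413 genes in the mouse annotation. They were chosen by name, and every ATAC-seq peak that overlapped a gene body or the 5 kb on either side was taken. The windows held 157 of the 504838 peaks listed over 4 libraries. Each library came from 50000 RFP+ Foxp3+ CD4+ Treg cells of the lymph nodes of unstimulated female C57BL/6 Foxp3Rfp/Rfp reporter mice aged 6 to 8 weeks. The libraries were 2 WT and 2 Il2ramut/mut, the latter from mice homozygous for a germline missense mutation of Il2ra that lowers surface CD25, the alpha chain of the IL-2 receptor. Because the mutation is present in every cell of the animal, a difference between genotypes cannot be assigned to the Treg cells alone. ATAC-seq marks open chromatin, the DNA that Tn5 transposase can reach.

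MHC class I molecules show peptides from inside the cell to CD8 T cells and are made by nearly all nucleated cells. H2-K1 and H2-D1 encode the heavy chains and B2m the light chain, Tap1 and Tap2 form the pump that brings peptides into the endoplasmic reticulum, and Nlrc5 is the transactivator of these genes. MHC class II molecules show peptides taken up from outside to CD4 T cells. H2-Aa and H2-Ab1 encode the alpha and beta chains of I-A, Cd74 encodes the invariant chain that fills their groove during assembly, and Ciita is the transactivator that the class II genes depend on. Mouse T cells are held not to express class II genes. Both transactivators bind no DNA themselves and work through the same promoter module, in which RFX, CREB-family and NF-Y proteins occupy the X1, X2 and Y boxes.

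The promoters of H2-K1, H2-D1, B2m and H2-Aa each held an X2 word (TGACG) and a Y box (ATTGG) beginning 25 or 26 bases downstream of the start of that word, on the strand of the gene. The stretches from the X2 word to the Y box are shown because peaks of all 4 libraries covered them, in both classes. They are written 5′ to 3′ from RefSeq promoters of GRCm38.p6 (the build of the files, also called mm10), with the X2 word and the Y box in capitals:
H2-K1 (chr17:34000359-34000388, minus strand): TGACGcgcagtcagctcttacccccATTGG
H2-D1 (chr17:35262993-35263022, plus strand): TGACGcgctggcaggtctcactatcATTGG
B2m (chr2:122147609-122147638, plus strand): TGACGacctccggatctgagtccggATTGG
H2-Aa (chr17:34287867-34287897, minus strand): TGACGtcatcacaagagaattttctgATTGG
The H2-K1 and H2-D1 stretches were identical at 23 of 30 positions, and the B2m stretch matched that of H2-K1 at 13 of 30 and that of H2-D1 at 12 of 30.

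The 200 bases that end 11 bases upstream of the RefSeq start site are given below for 2 class I genes and 1 class II gene, with capitals on the X2 word, the Y box, the X1 word (GCAAC) where it preceded the X2 word, and the NF-kappaB word (GGGATTCCC):
H2-K1 (chr17:34000358-34000557, minus strand): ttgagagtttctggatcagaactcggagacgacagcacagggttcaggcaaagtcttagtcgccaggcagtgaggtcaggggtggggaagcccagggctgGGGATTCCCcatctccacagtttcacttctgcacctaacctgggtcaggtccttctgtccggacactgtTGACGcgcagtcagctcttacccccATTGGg
B2m (chr2:122147477-122147676, plus strand): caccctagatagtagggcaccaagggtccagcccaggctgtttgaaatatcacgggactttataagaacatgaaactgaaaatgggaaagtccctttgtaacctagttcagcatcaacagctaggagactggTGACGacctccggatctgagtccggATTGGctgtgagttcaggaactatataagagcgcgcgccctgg
H2-Aa (chr17:34287834-34288033, minus strand): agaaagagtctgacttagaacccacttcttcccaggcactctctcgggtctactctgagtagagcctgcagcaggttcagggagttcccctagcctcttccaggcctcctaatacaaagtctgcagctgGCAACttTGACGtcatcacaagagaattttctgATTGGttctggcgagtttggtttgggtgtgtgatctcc
The NF-kappaB word began at position -110 from the RefSeq start site in H2-K1 and at position -170 in H2-D1. H2-Aa was the promoter among those found that had an X1 word directly before the X2 word. An IRF word (AANNGAAA) was present in the promoters of H2-K1, H2-D1, B2m and H2-Aa and absent from that of Tap1. No STAT word (TTCNNNGAA) lay in any of these 5 promoters. The Tap1 promoter held an X2 word and, upstream of it, a Y box on the opposite strand, and so lacked the arrangement. Promoter sequences were found for 5 of the 10 genes; Tap2, Nlrc5, Ciita, H2-Ab1 and Cd74 were not matched.

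An X2 word followed 10 to 40 bases downstream by a Y box, on either strand, occurred in 311 of 32851 RefSeq promoters of 300 bases (0.947%) and in 4 of the 5 matched here. Searched alone on both strands, the Y box was in 37.4% of all promoters, the X2 word in 20.8%, the X1 word in 35.2%, the IRF word in 23.9%, the STAT word in 8.30% and the NF-kappaB word in 0.353%. Words could overlap one another, and in H2-Aa the X2 word overlapped a second one on the other strand. These matches are descriptions of letters and not measured binding.

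The middle of the stretch from the X2 word to the Y box lay 0.5 to 94.5 bases from the promoter summit. Whether other promoter words lay as close was not tested. In H2-K1 the peak summit was 36.5, 7.5, 10.5 and 2.5 bases from the middle of the stretch in WT 1, WT 2, Il2ramut/mut 1 and Il2ramut/mut 2, the order used for 4 values in a row throughout. In B2m the distances were 27.5, 0.5, 1.5 and 13.5 bases, and in H2-D1 they were 38.5, 94.5, 6.5 and 10.5 bases. In H2-Aa they were 43.0, 43.0, 25.0 and 69.0 bases. The arrangement lay inside the called peak of every library in each of these 4 genes.

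Peak height was read as the fold of the summit over the background of its own library and as a percentile of the −log10 p among all peaks of that library. Within a library both put the peaks in the same order. The lists held 112569 and 126761 peaks in WT and 122776 and 142732 in Il2ramut/mut. Sequencing depth was not given in the files, but each fold value resolved into a whole read number (within 0.01 read), and the weakest called summits had 5 or 6 reads and the median summit 8 to 10. A percentile of 90 began at a fold of 13.2, 17.2, 13.9 and 12.1, highest in WT 2, whereas the median folds were 4.56, 4.55, 4.93 and 4.37, so percentiles are used between libraries.

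The class I promoters were among the strongest peaks of each library, Tap2 excepted. H2-K1 (chromosome 17, 33996017 to 34000347, minus strand) had a promoter peak with a fold of 41.5, 64.7, 45.8 and 49.6, at the percentiles 98.5, 98.9, 98.4 and 98.7. B2m (chromosome 2, 122147686 to 122153083) had folds of 47.6, 58.6, 44.9 and 46.7, at the percentiles 98.9, 98.7, 98.3 and 98.6. These were the highest of the 10 genes, and the ranges of H2-K1 and B2m overlapped each other and no other gene.

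H2-D1 (chromosome 17, 35262730 to 35267499) reached folds of 35.0, 50.5, 39.0 and 29.2, at the percentiles 97.8, 98.1, 97.8 and 96.6. Its summit lay in exon 1 of the annotated transcript, 183 to 316 bases downstream of that start, in the region that RefSeq places upstream of its own start site. Tap1 (chromosome 17, 34187553 to 34197225) had folds of 35.5, 46.0, 33.2 and 35.5, at the percentiles 97.8, 97.7, 96.9 and 97.5. The same peak was also the promoter peak of Psmb9, an immunoproteasome subunit read in the other direction. H2-D1 and Tap1 were not separable from each other by their ranges.

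Nlrc5 (chromosome 8, 94434356 to 94527272), the regulator of the pathway, had a promoter peak with folds of 20.3, 36.9, 21.5 and 24.3, at the percentiles 94.2, 96.5, 94.0 and 95.5. It stood below Tap1 in every library, and its range overlapped that of H2-Aa just below it. Of the 9 regions in its window, 4 were called in all libraries, the promoter and 3 regions in intron 2 of the longest transcript.

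Tap2 (chromosome 17, 34203527 to 34216321) differed from the other class I genes. Its promoter peak had folds of 9.62, 7.07, 7.63 and 7.78, at the percentiles 86.0, 76.7, 81.9 and 84.5, and its summit lay about 1 kb inside the gene, 957 to 1013 bases downstream of the start. A peak over the start site itself was called in WT 2, at a percentile of 58.0. In Il2ramut/mut 2 one peak ended upstream of the start (46.7) and another began just downstream of it (25.3), and neither of the other libraries had a peak there. Tap2 instead had the densest set of weaker peaks, 36 over the 4 libraries or 3.95 per 10 kb on average. One of them lay in exon 6, with the percentiles 84.2, 91.1, 84.0 and 90.5. Another, 5.17 kb upstream of the start, had 84.2, 88.6, 84.8 and 92.6, was nearest to the start of Psmb8 and was shared with the window of Tap1.

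The class II genes were open at their promoters too, at lower levels, Ciita excepted. H2-Aa (chromosome 17, 34282744 to 34287823, minus strand) had folds of 15.7, 30.8, 20.6 and 17.0, at the percentiles 91.9, 95.3, 93.7 and 93.0. H2-Ab1 (chromosome 17, 34257689 to 34269419) had folds of 11.7, 17.2, 11.7 and 10.7, at the percentiles 88.6, 90.2, 88.3 and 88.8, with its summit within 26 bases of the start of the main transcripts. Cd74 (chromosome 18, 60803848 to 60812652) had folds of 12.7, 11.6, 16.1 and 19.4, at the percentiles 89.6, 85.7, 91.6 and 94.0. Each of these 3 genes was called in every library, and neighbours in the order H2-Aa, Cd74, H2-Ab1 overlapped in range.

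Ciita (chromosome 16, 10480059 to 10528418) was the exception, and all 5 of its annotated start sites were without a promoter peak in WT 1, Il2ramut/mut 1 and Il2ramut/mut 2. In WT 2 a peak with 7 reads at its summit, a fold of 4.04 and a percentile of 24.5 lay 131 bases upstream of one start site. With the smallest called summit at 5 or 6 reads, weaker accessibility at the Ciita promoters was not detectable in these lists. The region of the Ciita window called in all 4 libraries lay in intron 17, 35.3 kb downstream of the nearest Ciita start site and closer to the start of Dexi, with folds of 4.56, 8.59, 9.42 and 10.7.

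**Figure D1:**
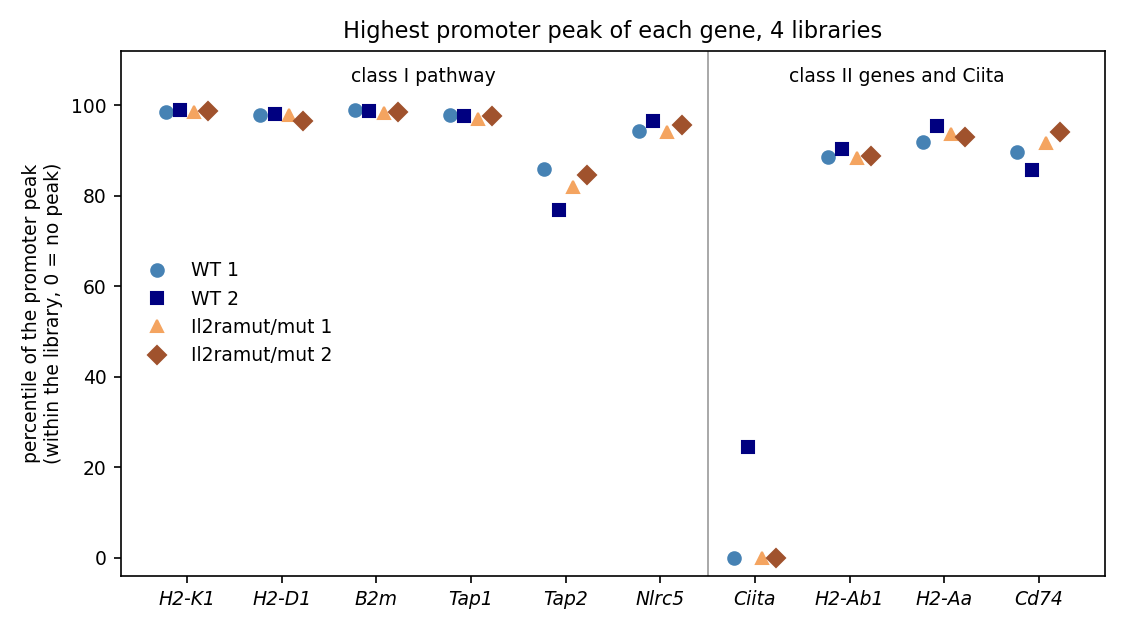
Percentile of the highest promoter peak (within 1 kb of an annotated start site) of each gene among all peaks of its library, with 0 for no peak, by library (symbols). H2-K1, H2-D1, B2m and Tap1 lie between 96.6 and 98.9, H2-Aa, H2-Ab1 and Cd74 between 85.7 and 95.3, and Ciita at 0 in 3 libraries.

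A promoter peak in all 4 libraries was found for 9 of the 10 genes, all 6 of class I and 3 of 4 of class II, against 52.0% of the 21911 protein-coding genes. Among protein-coding genes, the mean promoter percentile of H2-K1 was above that of 92.4%, of B2m above 92.2%, of H2-D1 above 86.9%, of Tap1 above 86.6% and of Nlrc5 above 76.8%. For class II the shares were 71.4% for H2-Aa, 63.2% for Cd74, 60.8% for H2-Ab1 and 37.4% for Ciita, and for Tap2 it was 54.3%. Among the 11402 genes with a promoter peak in every library, the median of the mean percentiles was 94.3 (quartiles 89.0 and 97.6). H2-Aa, Cd74 and H2-Ab1 therefore stood below the middle of the genes with open promoters, and 5 of the 6 class I genes above it.

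The highest class I promoter peaks were also broader, Tap2 excepted. The highest promoter peak of each gene in each library was taken, and smaller promoter peaks were left out. Over these 24 class I peaks the median width was 846 bases (319 to 2236, or from 538 without Tap2). Over the 13 of class II it was 459 bases (200 to 592). The number of reads at the summit of these peaks had a median of 72.5 (13 to 127, or from 39 without Tap2) in class I. In class II the median was 30.0 (7 to 60).

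The comparison of the classes asks whether the pathway that T cells use is more open than the one they are held not to use. In WT 1 the median percentile of the highest peak over the 6 class I genes was 97.8 and over the 4 class II genes 89.1. In WT 2 the medians were 97.9 and 88.3, in Il2ramut/mut 1 they were 97.3 and 89.9, and in Il2ramut/mut 2 they were 97.0 and 90.9. Class I was higher in 4 of 4 libraries, by 7.97 ± 1.52 percentile points (mean ± SD, n = 4 libraries). The exact two-sided sign-flip permutation test over libraries gave p = 0.125, the smallest p that 4 libraries allow, so the design cannot pass a threshold of 0.05.

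This order belonged to the highest peaks. When the median over all peaks of a window stood for each gene, class II was higher by 1.78 points on average and in every library (exact p = 0.125). Counted once each, the 26, 32, 24 and 36 class I peaks had median percentiles of 81.9, 82.5, 84.8 and 76.5. The 9, 10, 9 and 11 class II peaks had medians of 86.7, 84.8, 86.2 and 88.8.

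**Figure D2:**
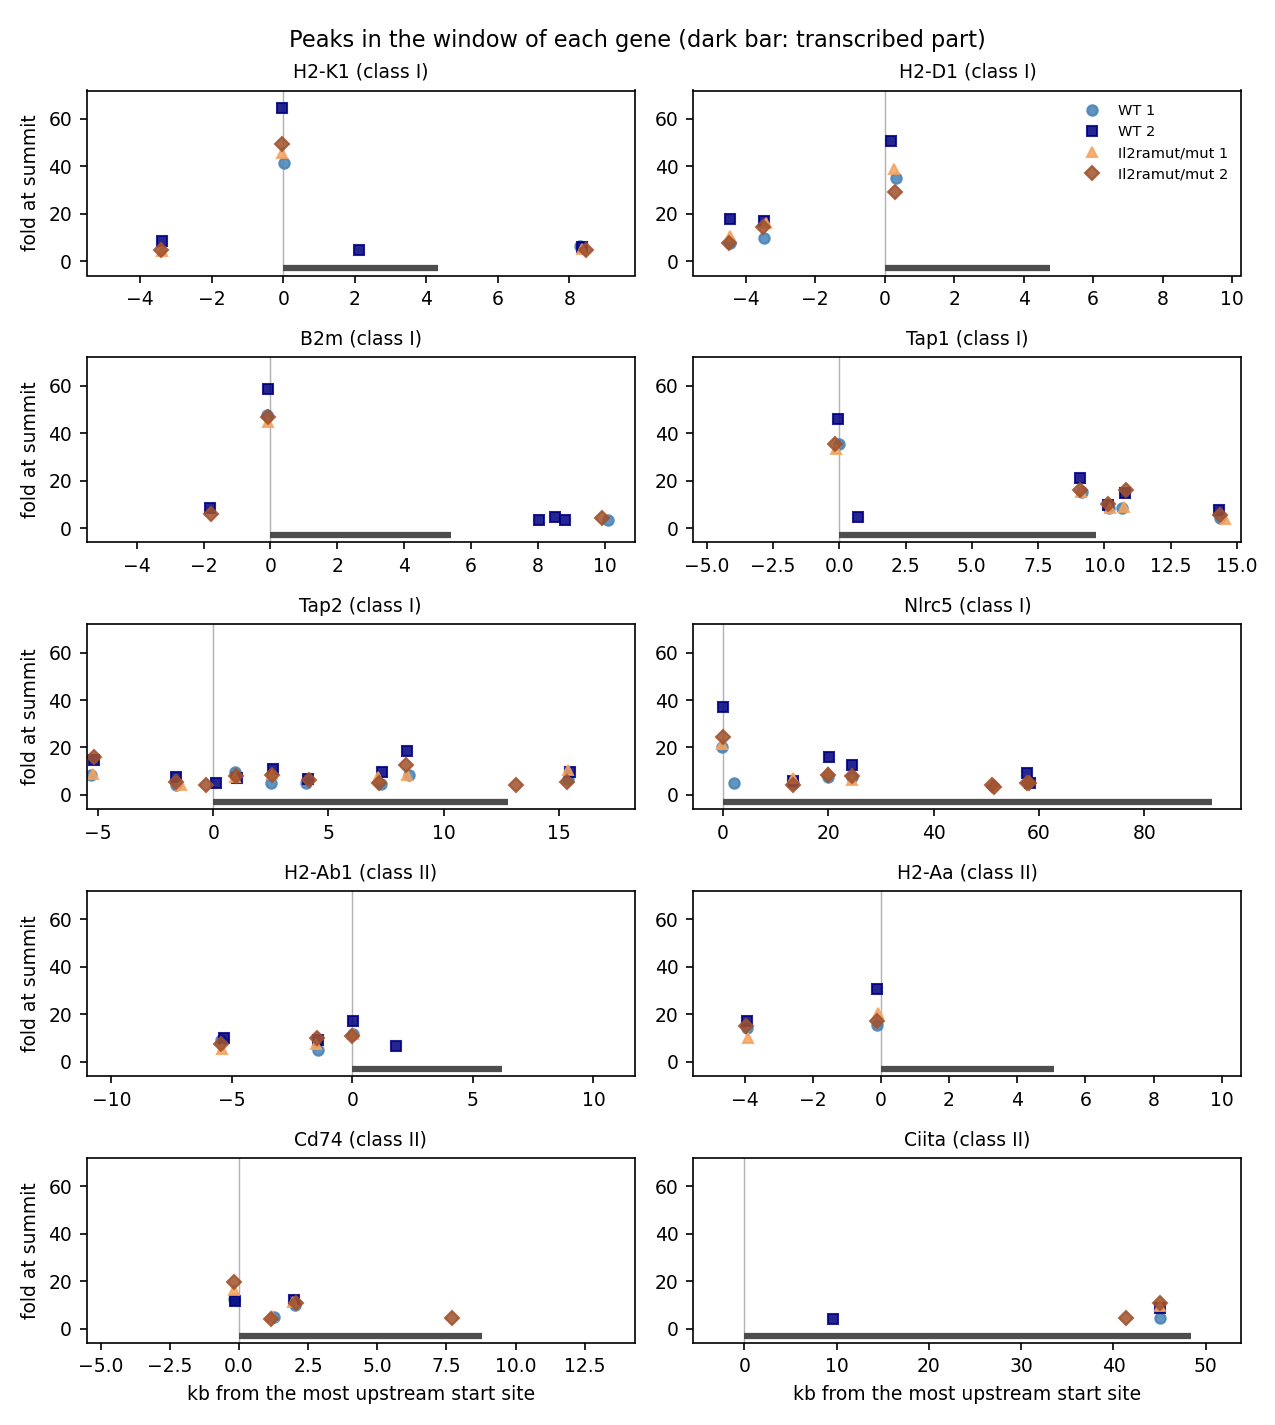
Fold at the summit (vertical) of the highest peak of each library in each joined region of the gene windows, with libraries as symbols. Distance is in kb from the most upstream annotated start site in the direction of transcription, and the transcribed part is a dark bar. Lower peaks of the same region are not drawn, such as those in intron 1 of B2m in Il2ramut/mut 1 and 2 (folds of 16.6 and 19.9). H2-K1 and B2m show 1 tall promoter peak with folds of 41.5 to 64.7, whereas the peaks of H2-Ab1, H2-Aa and Cd74 stay at or below 30.8 and Ciita has none above 10.7.

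Some elements away from the promoters, but not all, were called in all 4 libraries, in both classes. H2-Aa had a second region 3.94 kb upstream of its start site, in the flank between genes, with folds of 14.2, 17.2, 9.87 and 15.1 at the percentiles 90.8, 90.2, 86.2 and 92.1. It was close to the promoter fold in WT 1 and Il2ramut/mut 2 (15.7 and 17.0) and lower in WT 2 and Il2ramut/mut 1 (30.8 and 20.6). That region held the arrangement again, on the plus strand, with 24 bases from the X2 word to the Y box, and is shown because it was the one member region away from a promoter that did so (GRCm38.p6, capitals on the X2 word and the Y box):
H2-Aa upstream region (chr17:34291731-34291789, plus strand): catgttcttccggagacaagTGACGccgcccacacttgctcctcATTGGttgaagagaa
Its summits lay 5, 1, 40 and 17 bases from the middle of the part that runs from the X2 word to the Y box. Within 300 bases centred on the summit, the arrangement was found in 291 of 38281 regions called in all 4 libraries (0.760%), in 3 of the 20 class I regions (the promoters of H2-K1, H2-D1 and B2m) and in 2 of the 8 class II regions (both of H2-Aa). Within those 300 bases, the promoter regions of Cd74, H2-Ab1, Nlrc5 and Tap1 did not hold these letters in the order searched. For Cd74, H2-Ab1 and Nlrc5 the rest of the promoter region was not searched.

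H2-Ab1 had 2 further regions upstream. The nearer one, 1.46 kb from the start, had the percentiles 62.4, 82.1, 81.9 and 88.2, and the farther one, 5.31 kb away where the gene record begins, had 85.1, 83.8, 66.2 and 83.3. Cd74 had a region in intron 1, 1.99 kb downstream of the start, with the percentiles 86.7, 86.3, 87.8 and 88.8. In class I, H2-D1 had a pair of regions 3.47 and 4.44 kb upstream, the nearer with the percentiles 86.0, 90.2, 91.6 and 91.8 and the farther with 81.9, 90.5, 87.3 and 84.5.

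Joined over the libraries, the peaks made 49 regions, 36 at class I genes and 13 at class II genes. Of these, 20 and 8 were called in all 4 libraries, 55.6% and 61.5%, against 14.1% of the 272233 regions of the whole series. The whole series was not limited to gene windows with their promoters, and 166908 of its regions were called in 1 library, so the shares are of unlike sets. Of the 13 regions at the members called in 1 library, 7 came from WT 2 and 5 from Il2ramut/mut 2. Of the 49 regions, 0 were called in both WT libraries and in neither Il2ramut/mut library, against 2.70% over all regions, and 0 in both Il2ramut/mut libraries and in neither WT library, against 3.56%.

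The genotype comparison asks whether weaker IL-2 receptor signalling goes with a change at these genes. The class I median was 97.8 in WT and 97.2 in Il2ramut/mut on average, a difference of -0.64 points, and the class II median was 88.7 in WT and 90.4 in Il2ramut/mut, a difference of 1.74 points. For both, the exact two-sided permutation test over 4 libraries gave p = 0.333, the smallest p that 2 against 2 allow. The replicates differed by 0.0683 points (WT) and 0.289 points (Il2ramut/mut) in class I, and by 0.823 and 0.981 points in class II. No difference between genotypes can pass a threshold of 0.05 in this design. The class II difference was 0.01 points with 20 kb on either side of the gene, 0.81 points with equal numbers of peaks, and 5.10 points with peaks of a −log10 q of at least 3. It turned to -2.85 points when the median over all peaks of the window stood for each gene.

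Of the 28 regions called in all 4 libraries, 9 had percentiles that did not overlap between the genotypes, against 38.8% over all 38426 regions called in all 4. Il2ramut/mut was higher in 4 of the 28, against 26.2% over all regions, and lower in 5, against 12.6% over all. The split moved with the setting, as it did over all regions. With equal numbers of peaks per library 4 were higher and 9 lower of 28, against 19.9% and 20.2% over all regions, and with peaks of a −log10 q of at least 3, 8 were higher and 1 was lower of 27, against 44.2% and 5.19%. The share of the members apart in either direction, 32.1%, was below that over all regions, as it was at a −log10 q of at least 3 (33.3% against 49.3%). It was above it with equal numbers of peaks (46.4% against 40.1%) and with 20 kb windows (40.8% against 38.8%). Without any 1 library, when fewer values have to be apart, 18 to 22 of 28 to 31 regions were apart, or 58.1% to 75.9%, against 66.3% to 72.2% over all regions.

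Among the class II regions, 3 of 8 were higher in Il2ramut/mut (37.5%, against 26.2% over all regions) and 1 was lower (12.5%, against 12.6%). At the Cd74 promoter the WT libraries, at 89.6 and 85.7, lay below the Il2ramut/mut libraries, at 91.6 and 94.0. The reads at the summit were 24 and 22 against 35 and 39. Reads are derived from the fold, without correction for depth, and are not a separate measure. The Cd74 difference in the highest peak was 4.88 points (3.25 without WT 2), and it kept its sign under each alternative other than the median over all peaks of the window, which gave -8.58 points. At the intron 1 region of Cd74 the percentiles were 86.7 and 86.3 in WT and 87.8 and 88.8 in Il2ramut/mut, but the folds of 10.1, 12.1, 11.2 and 10.7 overlapped. At the intron 17 region of Ciita the WT libraries were at 47.7 and 81.0 and the Il2ramut/mut libraries at 85.6 and 88.8, with 8 and 16 against 20 and 21 reads. That Ciita difference was 22.8 points with all libraries, 6.13 without WT 1 and 39.4 without WT 2. The H2-Ab1 region 5.31 kb upstream was lower in Il2ramut/mut, at 66.2 and 83.3 against 85.1 and 83.8.

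Among the class I regions, 1 of 20 was higher in Il2ramut/mut (5%, against 26.2% over all regions) and 4 were lower (20%, against 12.6%). The promoters of H2-D1, B2m and Tap1 differed by -0.76, -0.34 and -0.52 points on average. The folds of H2-D1 and Tap1 overlapped between genotypes, while those of B2m, 47.6 and 58.6 against 44.9 and 46.7, did not. The reads at the B2m summit, 93 and 115 against 99 and 95, did overlap. Single libraries decided much of their size, which was -0.16 without Il2ramut/mut 2 and -1.35 without Il2ramut/mut 1 for H2-D1, -0.20 without WT 1 for B2m, and -0.22 without Il2ramut/mut 1 and -0.83 without Il2ramut/mut 2 for Tap1. The other region that was lower lay downstream of H2-K1, 8.20 kb from its nearest start site, with 78.2 and 71.3 against 66.2 and 62.3. The region 3.47 kb upstream of H2-D1 was higher in Il2ramut/mut. Taken by gene, the highest promoter peak was apart between genotypes in 4 of the 9 genes with a promoter peak in all libraries, lower in 3 (H2-D1, B2m and Tap1) and higher in 1 (Cd74). Over the 11402 such genes, 10.1% were lower and 31.1% higher. With peaks of a −log10 q of at least 3, H2-D1, B2m and Tap1 overlapped between the genotypes.

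**Figure D3:**
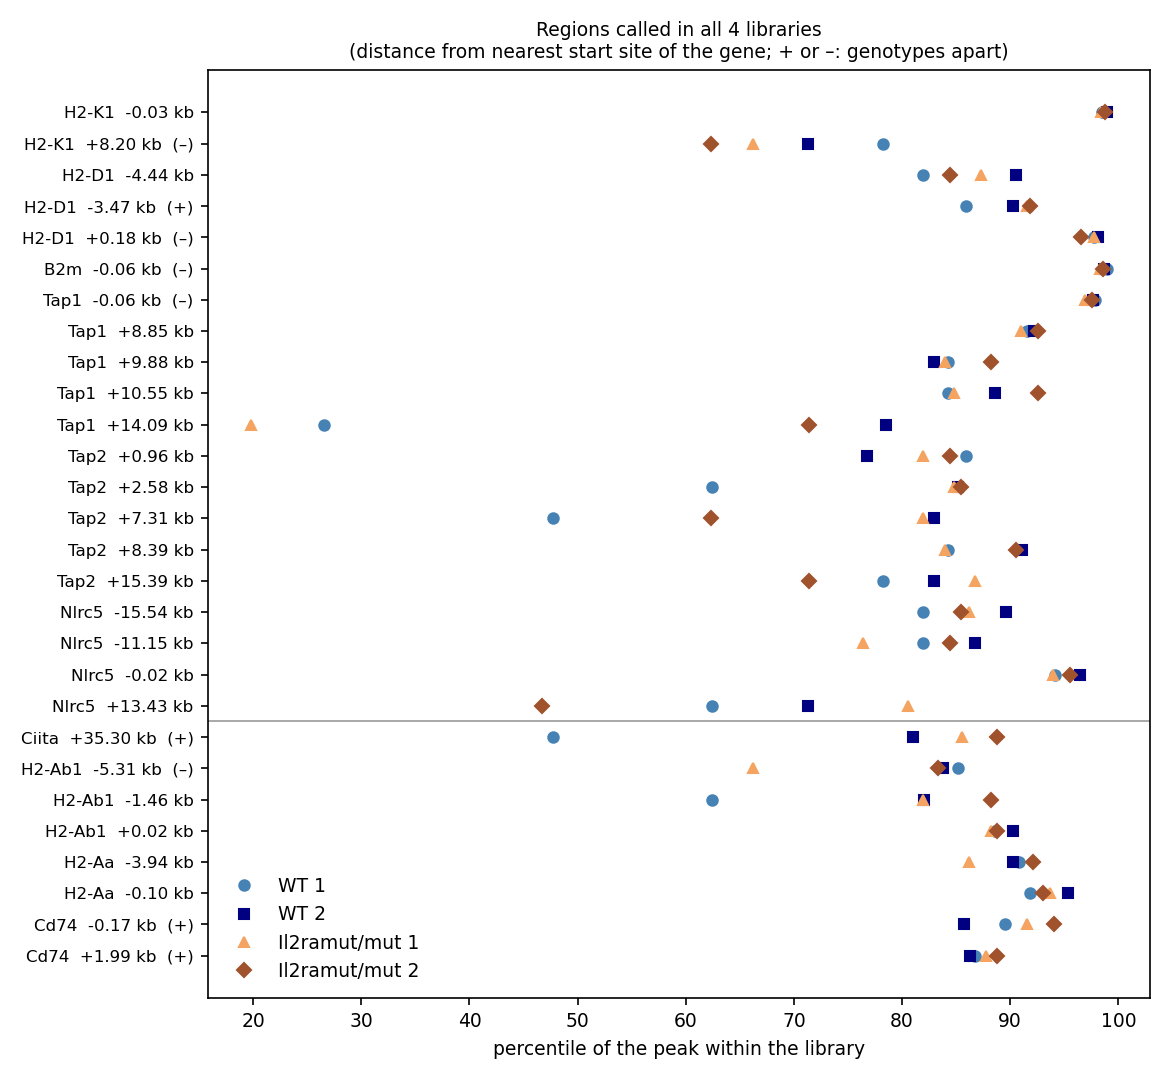
Percentile of each of the 28 regions called in all 4 libraries (rows, class I above the line and class II below, each named by a gene and its distance in kb from the nearest start site, shared regions shown once), by library, with (+) or (–) where both Il2ramut/mut libraries lie above or below both WT libraries. The promoter rows of H2-K1, B2m and Tap1 are packed between 96.9 and 98.9, and the rows of Cd74 and Ciita carry the (+) marks of class II.

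All 18 further genes of the class I pathway had a promoter peak in all 4 libraries, with a median of the mean percentiles of 96.2 (84.1 to 99.8). The highest were Calr (99.8) and Canx (99.2), the calreticulin and calnexin chaperones, and the class I gene H2-T22 (98.7). The lowest were Erap1 (84.1), which trims peptides, and the proteasome genes Psmb10 (86.7) and Psme3 (87.6). Reads at H2-T and H2-Q genes may be shared between near-identical copies and were not separated here.

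The further class II genes were uneven. Of 10 genes, 7 had a promoter peak in all 4 libraries and the other 3 in 1 or 2, with a median of 87.7 (1.89 to 98.7). H2-DMa, a chain of the peptide editor H2-DM, was at 98.7, 98.9, 98.6 and 98.7, the level of H2-K1. The protease gene Lgmn had a mean of 98.1, and H2-Eb1, whose product is the beta chain of I-E, had 91.2, 92.2, 86.2 and 90.9. At the other end, the cathepsin gene Ctss had 47.7 and 78.5 in WT and no promoter peak in either Il2ramut/mut library. H2-Eb2 and H2-DMb1 had a promoter peak in WT 2 alone, at 24.5 and 7.55.

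All 9 shared regulators had a promoter peak in every library, with a median of 98.1 (93.9 to 99.5). The NF-Y subunit gene Nfya was highest, followed by Creb1 and the RFX subunit gene Rfx5 (98.5, 98.5, 98.4 and 98.8). Rfxap, another RFX subunit gene, had the lowest mean (93.9), after the NF-Y subunit genes Nfyc (97.2) and Nfyb (97.9). The Ciita promoters, in contrast, were not called in 3 of 4 libraries.

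The labelled cell type was checked against its markers. All 9 T cell and Treg genes had a promoter peak in every library, among them Foxp3 (47.7, 78.5, 72.6 and 79.7) and Cd4 (83.2, 83.8, 76.4 and 71.4), with Il2rb highest (99.3 on average), followed by Ctla4 (96.7) and Cd3g (96.4), and Cd3d (87.1), Cd4 and Foxp3 lowest. Class II genes are active in B cells and dendritic cells, so the markers of these cells stand beside the class II values. Of 7 B cell genes, 2 had a promoter peak in all 4 libraries (Cr2, 81.5 on average, and Ebf1, 41.4), and 4 in none, namely Ms4a1, Cd79a, Pax5 and Blk. Cd79b had one in WT 2 (24.5) and Il2ramut/mut 2 (46.7). Of 8 dendritic cell and macrophage genes, Zbtb46 had a peak in all 4 (50.5 on average), Cd14 in WT 2 and Il2ramut/mut 2 (58.0 and 71.4), and the other 6, Itgax, Flt3, Xcr1, Csf1r, Lyz2 and Spi1, in none. Over the 21911 protein-coding genes, 52.0% had a promoter peak in all 4 libraries and 35.8% in none. Away from their promoters, Cd79a (98.1 on average), Pax5 (86.8), Blk (86.4), Xcr1 (99.6), Spi1 (89.1), Itgax (79.6) and Flt3 (77.5) had window peaks in all 4 libraries. The highest window peaks of Cr2 (96.0), Zbtb46 (94.4) and Ebf1 (91.3) were also above their promoter peaks on average. Ms4a1, Csf1r and Lyz2 had no window peak in any. The summed reads at promoter summits were 23 and 35 in WT and 23 and 28 in Il2ramut/mut for the B cell list, and 8 and 17 in WT and 9 and 20 in Il2ramut/mut for the dendritic cell list. Cd8a had no promoter peak in any library, and Cd8b1 had a mean of 77.9. The promoters of H2-Aa, H2-Ab1 and Cd74 had 21 to 60 reads at the summit, those of Cr2 had 13 to 16 and those of Ebf1 7 to 12. The part of B cells or dendritic cells in the class II values was not tested. In bulk libraries a few strongly open cells and many weakly open cells cannot be told apart.

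**Figure D4:**
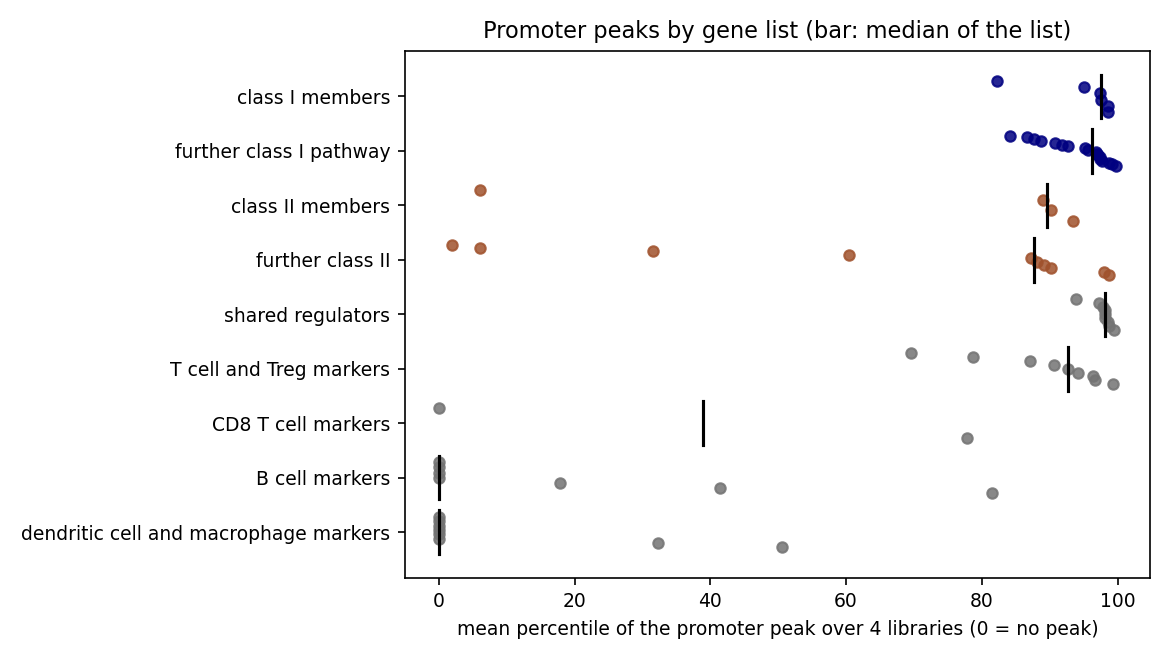
Mean percentile of the promoter peak over the 4 libraries (0 for no peak in any) for each gene of the 2 classes, of the further class I and class II lists, of the shared regulators and of the cell type markers, with a bar at the median of each list. Class I genes and shared regulators lie above 80, class II genes spread from 1.89 to 98.7, and most B cell and dendritic cell markers lie at 0.

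Among promoter regions, sequence repeats touched those of the 2 heavy chain genes most. Of the 50-base words in each member region, 15.8% in the H2-K1 promoter region and 14.4% in that of H2-D1 occurred more than once in the genome, against 2.55% in that of B2m and none in the promoter regions of Tap1, Tap2, Nlrc5, Ciita, H2-Ab1, H2-Aa and Cd74. In the 200 bases around the summits of H2-K1, H2-D1 and B2m, none of the 152 words was repeated in any library. Without H2-K1 and H2-D1 the class difference was 6.73 points, in the same direction.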

How the data were processed

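Nuclei were transposed with Tn5, and paired reads were processed by the authors with Trim Galore 0.3.7, BWA 0.7.13 (mm10), SAMtools 0.1.19, Picard 1.92 and MACS2 2.1.0, the versions being those of the submitters' processing notes. Duplicate and mitochondrial reads were removed, read 1 was shifted for the Tn5 offset, and narrow peaks were called in each library on its own. The paper reports a further step that kept peaks reproducible among replicates, which was not applied here. The deposited lists give a score, the fold (a ratio to the library's background), the −log10 p and −log10 q and the summit of each peak. How reads with several matches were handled is not given in the sources used here.

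Gene models were GENCODE release 21 (basic). The percentile of a peak was computed from the −log10 p within its library, ties averaged. Promoters were 1 kb either side of an annotated start site, and regions were peaks of any library joined by at least 1 bp of overlap. Named genes were all members and, in longer lists, the 3 highest and 3 lowest promoter percentiles. Others were named where a count of a marker list called for it, after their values were seen. Members and lists were chosen with earlier results of these data known. One gene each of the regulator and B cell lists is not reported here and is left out of their counts. Classes were compared by exact sign flips over libraries, genotypes by exact permutation. The sources do not say which animals a library came from beyond 2 replicates per genotype, so p-values measure the spread between these libraries. Code was checked on simulated data (Python 3.11.15, numpy 2.4.6, pandas 2.3.3, numba 0.67.0).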

Additional observations from a re-analysis of the deposited data

How the results depend on the processing

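The class I minus class II difference of 7.97 points was recomputed under 13 alternatives and kept its direction under 12. It reversed to -1.78 points when the median over all peaks of the window stood for a gene. With 20 kb on either side it was 4.04 points, and with a −log10 q of at least 3 it was 11.7 points. Without each library in turn it ran from 7.43 to 8.58 points. The class I genotype difference (-0.64 points) kept its sign under 14 alternatives, from -1.63 to -0.39, with -0.79 to -0.50 when a library was left out. The class II difference (1.74 points) kept its sign under 13 of 14 and was -2.85 points with the median over all peaks, and 1.25 to 2.24 points without each library. With the replicate block, in which same-numbered libraries were paired, the differences were -0.64 and 1.74 points with exact p = 0.5, the smallest p that 2 pairs allow. The block averages the same libraries and rank by fold keeps the order of peaks, so neither could change a difference. Gene body windows, and leaving out peaks nearer another gene, returned the same values too, as promoter peaks did for the class I genotype difference. These alternatives add nothing to the counts of kept signs. Same-numbered libraries did not deviate together (r = 0.0136 over 38426 regions), so the numbers are not shown to pair them.

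Among the 5 genes whose genotypes were apart, the median over all peaks reversed H2-D1 (0.82), B2m (41.6), Tap1 (3.71) and Cd74 (-8.58). Ciita reversed to -12.2 with promoter peaks and to -12.2 when peaks nearer another gene were left out. The 5 genes whose genotypes overlapped had the opposite sign under 2 (H2-Ab1), 3 (H2-K1, Nlrc5 and H2-Aa) or 4 (Tap2) alternatives, so no direction is read for them. The causes were not tested. The 9 of 28 regions apart between genotypes became 20 of 49 with 20 kb windows (40.8%, against 38.8% over all regions). Without each library, when fewer values have to be apart, they were 18 to 22 of 28 to 31, with 22 of 29 without WT 1 (75.9% against 66.3%), 18 of 31 without WT 2 (58.1% against 68.7%), 18 of 29 without Il2ramut/mut 1 (62.1% against 72.2%) and 19 of 28 without Il2ramut/mut 2 (67.9% against 69.3%). Members with a promoter peak were 8 within 250 bp, where Tap2 was lost, and 9 otherwise. Rank by fold changed no value. The lists hold only called peaks, so accessibility below 5 or 6 reads at a summit is not seen, and sequencing depth is unknown.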
